A study of Rattus norvegicus with 16 samples.

Results

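The microRNAs miR-204 and miR-211 were followed across kidney and blood plasma of rats with contrast-induced acute kidney injury (CI-AKI) and of their controls. They were chosen by name, as the 2 of 350 miRNAs on the array that the scanner files call rno-miR-204 and rno-miR-211, and the opposite (star) strand of miR-204 was not counted as a member. All 24 rats were male Sprague-Dawley animals that went without water for 3 days and received the diuretic furosemide at 10 mg/kg, so the controls carried dehydration and the diuretic too. In the CI-AKI group 12 rats then received the iodinated contrast medium Omnipaque (350 mg iodine per ml) at 10 ml/kg into the tail vein, and 12 control rats received the same volume of normal saline. Kidney and blood were taken 8 h later, and the RNA of every 3 rats was pooled. There were 4 pools in each of 4 groups: kidney CI-AKI, kidney control, plasma CI-AKI and plasma control. Each pool was read on 1 single-colour Agilent array, 16 in all, so the spread between samples is a spread between pools and not between animals.

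MiRNAs are short RNAs that guide a silencing complex to messenger RNAs, mainly through the seed, the bases near their 5′ end. MiR-204 is known as an abundant miRNA of tubule epithelium in the kidney and of the retinal pigment epithelium, and it is made from within Trpm3, the gene of a cation channel. MiR-211 is known from pigment cells and is made from within Trpm1, the gene of a related channel. RefSeq places both on the plus strand of rat chromosome 1 in the GRCr8 build. MiR-204 lies at chr1:229743493-229743514 and miR-211 at chr1:127189353-127189374. The 2 mature RNAs are shown because they share their seed (bases 2 to 8, in capitals), so that target prediction by seed cannot separate them while the array has to.

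rno-miR-204-5p: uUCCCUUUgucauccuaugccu

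rno-miR-211-5p: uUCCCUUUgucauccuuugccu

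They are identical at 21 of 22 bases and differ by A17U, counted from 1 at the 5′ end with the miR-204 base first. No other of the 693 mature rat miRNAs in the RefSeq table had this seed: it was found in 2, the members themselves. The precursor hairpins differ much more outside the mature strand, which is in capitals below. The miR-204 hairpin spans chr1:229743461-229743570 and the miR-211 hairpin chr1:127189328-127189433.

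Mir204 hairpin: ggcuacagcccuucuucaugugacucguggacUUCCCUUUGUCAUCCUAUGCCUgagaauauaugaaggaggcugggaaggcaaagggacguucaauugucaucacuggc

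Mir211 hairpin: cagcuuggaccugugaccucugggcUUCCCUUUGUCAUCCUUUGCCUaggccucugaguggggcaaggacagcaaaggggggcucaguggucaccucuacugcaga

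The arrays set limits that touch all values below. All plasma arrays lay on slide 1 and all kidney arrays on slide 2, so tissue and slide cannot be told apart. On both slides the CI-AKI pools lay in even columns and the control pools in odd columns, so column and treatment cannot be told apart either. Kidney arrays detected 169 to 216 miRNAs and plasma arrays 84 to 211. The plasma pool 4 arrays of both treatments were the dimmest: the labelling spike-in dmr_285 gave 164 signal units on the CI-AKI pool 4 array and 54.8 on the control pool 4 array, against 928 to 3155 on the other 6 plasma arrays. The spike-in dmr_6 gave 20432 to 24664 on all 8 plasma arrays. The array descriptions also carry a letter code, and 6 of the 8 letters stood for opposite treatments in the 2 tissues. The titles were followed here, and results with the treatment taken from the other tissue's letter are given where the sign turned.

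MiR-204 was present in every kidney pool, and miR-211 was detected in no pool of either tissue. By the detection flag that the scanner files give each miRNA, miR-204 was detected on 8 of 8 kidney arrays and on 6 of 8 plasma arrays, and the 2 without it were the dim pool 4 arrays. MiR-211 was detected on 0 of 16 arrays, as were 88 of the 350 miRNAs. Single spots gave the same split between the 2 miRNAs. Of the spots for miR-204, 160 of 160 in kidney and 114 of 160 in plasma (71.3%) were well above background. Of the spots for miR-211 the counts were 2 of 160 in kidney (1.25%) and 4 of 160 in plasma (2.5%), against 15 of 5376 negative control spots in kidney (0.279%) and 96 of 5376 in plasma (1.79%).

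MiR-211 therefore has no measured level here, only signals near 0. Its mean signal over 3 probes and 20 spots per array ran from −0.546 to 3.75 signal units over the 16 arrays, and on 13 of 16 arrays it lay below the lowest signal of any detected miRNA on the same array. After scaling within the tissue (each array divided by its 75th percentile over miRNAs detected on all arrays, then brought to a common unit), kidney miR-211 had 1.77, 1.32, −0.497 and 0.135 in the CI-AKI pools and 1.73, 1.04, 0.740 and 0.333 in the control pools. The lowest detected signals on those arrays ran from 1.11 to 2.83. In plasma it had 2.07, 1.19, 0.645 and 1.94 in the CI-AKI pools and 0.491, 0.263, 0.417 and −5.57 in the control pools. On the other 3 arrays (kidney CI-AKI pools 1 and 2 and plasma CI-AKI pool 2) it lay above that lowest signal and was still flagged as not detected. Because neither treatment had a detected miR-211 signal in either tissue, no fold change is given. These values do not show miR-211 as a tubule miRNA, since it was not detected in these kidneys. RNA of the whole kidney does not show which of its cells held miR-204, and the results below are those of miR-204.

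**Figure D1:**
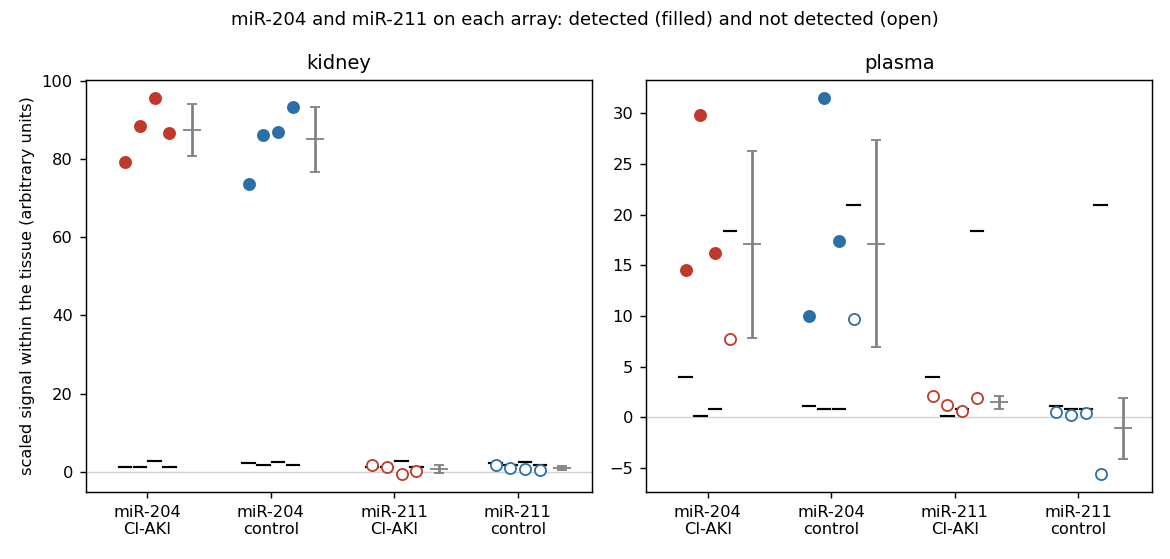
Scaled signal within each tissue (arbitrary units, linear axes that differ between panels) of miR-204 and miR-211 on each of the 16 arrays. Filled points were detected and open points were not, black dashes are the lowest detected signal of each array, and grey bars are the mean ± SD of 4 pools. MiR-204 lies between 73.6 and 95.5 in all kidney pools, and the 2 open plasma points of miR-204 lie below the dashes of their arrays.

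In the kidney miR-204 was nearly the same in treated and control rats. Its scaled signal was 79.3, 88.4, 95.5 and 86.8 in CI-AKI pools 1 to 4 and 73.6, 86.1, 87.0 and 93.4 in control pools 1 to 4. The groups overlapped over most of their range, with control pool 1 the lowest and CI-AKI pool 3 the highest of the 8. The means were 87.5 ± 6.66 in CI-AKI kidney and 85.0 ± 8.27 in control kidney (SD, n = 4 pools each). The log2 difference, CI-AKI minus control, was 0.04 (SE 0.09, 95% interval −0.16 to 0.25), a fold of 1.03 with an interval of 0.895 to 1.19, and the adjusted p was 0.917 (limma, Benjamini-Hochberg over 176 miRNAs). The exact permutation test over the 8 pools gave p = 0.6, two-sided, where the smallest possible was 0.0286. In this kidney comparison 3 of 176 miRNAs (1.7%) passed the adjusted threshold of 0.05, all of them higher in CI-AKI, and miR-204 was not among them.

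Set against the other miRNAs, miR-204 was an ordinary one in this contrast. The median difference of all 176 tested miRNAs was 0.03, the median size regardless of sign was 0.07, and 60 of them moved less than miR-204. Its spread between pools was ordinary as well: within groups the SD of its log2 signal was 0.129, against a median of 0.132 over the tested miRNAs. The sign of so small a difference was not stable, since it became −0.02 without control pool 1, −0.01 without CI-AKI pool 3 and −0.10 with the letter codes. In whole tissue, fewer cells of a type and less RNA per cell cannot be told apart.

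The 2 probes for miR-204 gave the same picture. In kidney one probe averaged 117 ± 12.2 in CI-AKI kidney and 113 ± 9.99 in control kidney (SD, n = 4 each), a log2 difference of 0.05 (exact permutation p = 0.6). The other probe averaged 57.6 ± 1.93 in CI-AKI kidney and 57.1 ± 6.88 in control kidney, a log2 difference of 0.02 (exact permutation p = 0.971). The 10 spots of a probe varied little on a kidney array, with median coefficients of variation of 5.28% and 6.25%. In plasma the first probe averaged 24.2 ± 10.1 in CI-AKI and 24.8 ± 12.5 in control rats (log2 difference 0.02, exact permutation p = 1), and the other 9.94 ± 8.91 in CI-AKI and 9.53 ± 8.61 in control rats (log2 difference 0.14, exact permutation p = 1). Within the rows of the kidney slide, each with 2 pools per treatment, the log2 difference was 0.07 in row 1 and 0.01 in row 2.

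None of the other tested miRNAs of kidney epithelium passed the threshold in kidney either, where only 3 of all 176 did (1.7%). With so few calls, 0 in a short list is no result about its miRNAs. Of the list of kidney-enriched miRNAs, 2 of 4 were tested in kidney and 0 passed in either direction. MiR-192, an abundant miRNA of kidney cortex, averaged 1506 ± 58.0 in CI-AKI kidney and 1560 ± 73.8 in control kidney (SD, n = 4 each), a log2 difference of −0.05. MiR-194, which sits beside miR-192 or miR-215 in mammalian genomes, averaged 403 ± 54.1 in CI-AKI kidney and 397 ± 9.25 in control kidney, a log2 difference of 0.01. MiR-215 and miR-216a were detected on no kidney array. All 10 miRNAs of the epithelial list (the miR-30 and miR-200 families) were tested and 0 passed; their median difference was 0.07 beside 0.03 for all tested miRNAs. Of these 10, 9 had a positive difference and 7 a larger one than miR-204, over a range of −0.0024 to 0.19. Among all 176 tested miRNAs miR-204 ranked 116 by size regardless of sign, so most of them moved more as well. The 2 largest of the epithelial list, named for their size, were miR-30b-5p at 0.19 (SE 0.10) and miR-200c at 0.15 (SE 0.09). Both had an adjusted p of 0.917 in limma.

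**Figure D2:**
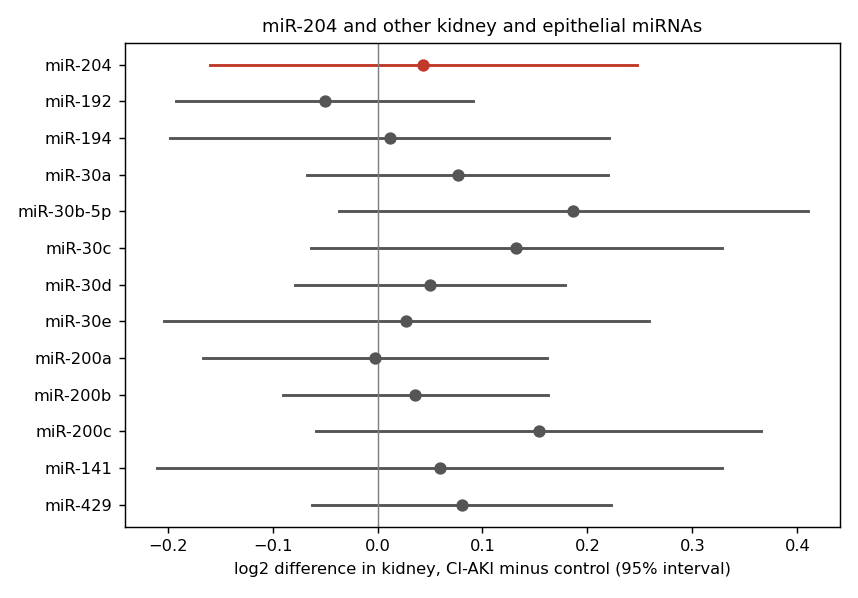
Log2 difference in kidney, CI-AKI minus control, with its 95% interval from the limma fit, for miR-204 (red) and for the tested miRNAs of the kidney-enriched and epithelial lists (grey), 4 pools per group. Every interval, with miR-204 at −0.16 to 0.25, includes 0.

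Marker miRNAs of other cells did not pass in kidney either. The counts that passed were 0 of 2 tested for red blood cells, 0 of 4 for leukocytes, 0 of 2 for endothelium and 0 of 4 for stroma and smooth muscle. Over all tested miRNAs 3 of 176 passed (1.7%), so 0 in lists this short is no result about these cells. The liver marker miR-122 was detected on no kidney array, and neither were 3 of the 4 muscle markers. The summed red blood cell markers ran from 183 to 200 in CI-AKI kidney and from 105.4 to 227 in control kidney on the scale of all 16 arrays, and the leukocyte markers from 222 to 286 in CI-AKI kidney and from 244 to 281 in control kidney. Their part in the miR-204 values was not tested.

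Plasma miR-204 varied much more between pools than kidney miR-204 and showed no treatment difference beyond that spread. Its scaled signal was 14.6, 29.8, 16.2 and 7.77 in CI-AKI pools 1 to 4 and 10.0, 31.5, 17.4 and 9.67 in control pools 1 to 4. Pool 4 was flagged as not detected in both groups, and the lowest detected signals on those arrays were 18.4 in the CI-AKI pool and 20.9 in the control pool. Pool 2 was the highest in both groups, and the groups overlapped almost completely.

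The plasma means were 17.1 ± 9.23 in CI-AKI and 17.1 ± 10.2 in control rats (SD, n = 4 pools each), a log2 difference of 0.01. Only miRNAs detected on all 4 arrays of a group entered the limma fit, which left miR-204 out of the 96 tested. In limma 0 of those (0%) passed the adjusted threshold, while 5 (5.21%) had p under 0.05 before adjustment. An exact permutation test over the 8 pools, added after the values were seen, gave p = 1 (smallest possible 0.0286). Within plasma groups the SD of the miR-204 log2 signal was 0.798, against a median of 0.513 over the tested plasma miRNAs and 0.129 for miR-204 itself in kidney. That SD includes the undetected pool 4 arrays, and the tested miRNAs had passed a filter that miR-204 failed. Without the pool 4 arrays of both groups the miR-204 SD was 0.657, against a median of 0.419 over 182 tested miRNAs.

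Without the pool 4 arrays of both groups miR-204 was detected on every plasma array and could be fitted. It then averaged 43.6 ± 19.6 in CI-AKI plasma and 34.4 ± 17.7 in control plasma (SD, n = 3 each, on the scale of those 6 arrays). The log2 difference was 0.37 (SE 0.42, 95% interval −0.54 to 1.29), beside a median of 0.26 over all tested miRNAs. Its adjusted p was 0.75 in limma over 182 miRNAs, of which 0 (0%) passed, while 32 (17.6%) had p under 0.05 before adjustment. On the scale of all 8 arrays the same pools had mean log2 signals of 4.26 in CI-AKI and 4.14 in control plasma. The exact permutation test over 6 pools gave p = 0.5, and 3 pools against 3 cannot go below 0.1. Same-numbered plasma pools deviated together, and on this scale each CI-AKI pool was above the control pool of its number: 32.6 in CI-AKI against 20.9 in control for number 1, 66.2 against 54.5 for number 2 and 31.9 against 27.9 for number 3. On the scale of all 8 arrays CI-AKI was higher in 1 of 4 pairs. With the replicate number as a block, a fit added after the values were seen, the log2 difference without pool 4 was 0.37 (SE 0.27, adjusted p = 0.463 in limma, 1 of 182 passed, 0.549%, not miR-204). The exact paired permutation test gave p = 0.25, the smallest that 3 pairs allow, and p = 1 over all 4 pairs, where the smallest is 0.125. In row 1 of the slide the log2 difference was 0.23 and in row 2, which holds both dim arrays, −0.21. The sign also turned on single pools: it was −0.19 without control pool 1, −0.07 without control pool 4, −0.31 without CI-AKI pool 2 and −0.02 without CI-AKI pool 3, and it was 0.36 without control pool 2 and 0.37 without CI-AKI pool 4. With the letter codes it was −0.17.

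Whether the treatment difference of miR-204 itself differed between kidney and plasma was tested in 1 fit of all 16 arrays. The interaction, the difference in kidney minus that in plasma, was −0.01 on the log2 scale (SE 0.56, 95% interval −1.20 to 1.18, adjusted p = 0.995 in limma). In that fit 1 of 185 miRNAs (0.541%) passed, and it was not miR-204. Without the dim pool 4 arrays the value was −0.30 with an adjusted p of 0.821 in limma. Without the dim arrays 206 miRNAs were tested and 2 (0.971%) passed.

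**Figure D3:**
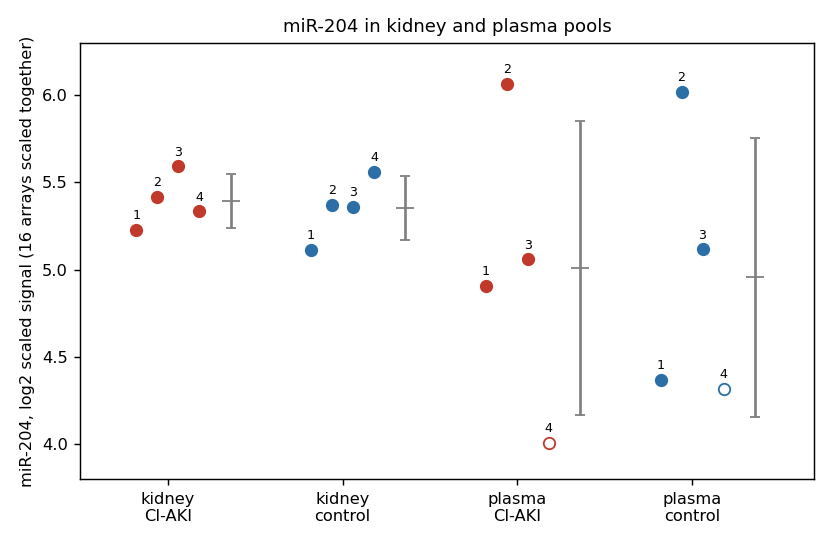
Log2 scaled signal of miR-204 with all 16 arrays on 1 scale, by group, with the pool number above each point. Open points were not detected, and grey bars are the mean ± SD of 4 pools. The kidney pools lie within 5.12 to 5.59, while plasma pool 2 of both treatments lies above every kidney pool and plasma pool 4 lies at the low end.

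The average level of miR-204 did not separate the tissues on the common scale, though its kidney pools lay much closer together than its plasma pools. With all 16 arrays scaled together it had 37.5, 42.7, 48.2 and 40.3 in CI-AKI kidney pools 1 to 4, against 30.1, 66.8, 33.3 and 16.1 in CI-AKI plasma pools 1 to 4. In the control rats it had 34.7, 41.4, 41.0 and 47.2 in kidney pools 1 to 4, against 20.7, 64.8, 34.7 and 19.97 in plasma pools 1 to 4. In both treatments plasma pool 2 was above every kidney pool of that treatment. The scaled values of plasma pools 1 and 4 were below every kidney pool in both treatments, and that of plasma pool 3 was too in CI-AKI rats. Pool 4 was not detected, and its signals before scaling were 1.40 in CI-AKI and 0.948 in control plasma. The lowest detected signals on those arrays, on this scale, were 38.1 in CI-AKI and 43.2 in control plasma. Both lie within the range of the kidney pools of their treatment, so pool 4 cannot show a level below that of kidney.

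The group order by mean was CI-AKI kidney at 42.2 ± 4.55, control kidney at 41.1 ± 5.11, CI-AKI plasma at 36.6 ± 21.5 and control plasma at 35.0 ± 21.0 (SD, n = 4 pools each), and no neighbours in that order differed by more than the larger of their SDs. Both plasma means, and the differences that follow, include the undetected pool 4. The log2 difference, kidney minus plasma, was 0.38 in CI-AKI rats (SE 0.39, 95% interval −0.46 to 1.22, adjusted p = 0.384 in limma). In control rats it was 0.40 (SE 0.39, 95% interval −0.44 to 1.23, adjusted p = 0.374 in limma). Most miRNAs did separate the tissues: 135 of 181 passed in CI-AKI rats (74.6%), 53 higher (29.3%) and 82 lower (45.3%) in kidney, and 138 of 178 in control rats (77.5%), 58 higher (32.6%) and 80 lower (44.9%). Of the 178 tested in control rats, 20 differed less between the tissues than miR-204.

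That comparison depended on how the arrays were brought to 1 scale, and the median of all miRNAs changed with the scaling too. With the scaling used here the median log2 difference of the tested miRNAs was −0.59 in CI-AKI and −0.40 in control rats. With quantile normalization the miR-204 difference was 1.63 in CI-AKI rats (adjusted p = 0.0242, limma) and 1.38 in control rats (adjusted p = 0.0481, limma), and the medians were 0.51 and 0.58. With normexp background correction it was −1.83 in CI-AKI rats (adjusted p = 0.0279, limma) and −0.92 in control rats (adjusted p = 0.256, limma), and the medians were −2.06 and −1.19. Normexp was the only alternative with a negative miR-204 difference. The others stayed positive: most did not pass, and a few passed with kidney higher, as quantile normalization did. Of the miRNAs that passed, the share higher in kidney was 39.3% in CI-AKI and 42.0% in control rats with the scaling used here, 61.3% and 60.9% with quantile normalization, 80.8% and 80.3% with no scaling, and 7.46% and 22.2% with normexp.

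The place of miR-204 relative to that median is nearly fixed by arithmetic where a scaling divides each array by 1 factor. Such a scaling shifts all miRNAs of an array alike, so a steady place under it is not a result. MiR-204 stood 0.97 above the median in CI-AKI rats and 0.79 above it in control rats with the scaling used here. Over the other scalings and the authors' deposited values it stood 0.74 to 1.12 above in CI-AKI and 0.79 to 0.82 above in control rats. Normexp was the exception, where it stood 0.23 and 0.27 above. Quantile normalization, which does not divide by 1 factor, gave 1.12 in CI-AKI and 0.80 in control rats. Without the pool 4 plasma arrays the difference was 0.20 in CI-AKI rats (adjusted p = 0.526, limma, 168 of 195 passed, 86.2%) and 0.50 in control rats (adjusted p = 0.118, limma, 174 of 203 passed, 85.7%). The medians of the tested miRNAs were then −0.56 in CI-AKI and −0.68 in control rats. MiR-204 thus stood farther above the median in control than in CI-AKI rats, the reverse of the order with all arrays. Within the slide rows the miR-204 difference was −0.16 in row 1 and 0.93 in row 2 for CI-AKI rats, and 0.05 and 0.74 for control rats. Row 2 holds the dim plasma arrays.

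**Figure D4:**
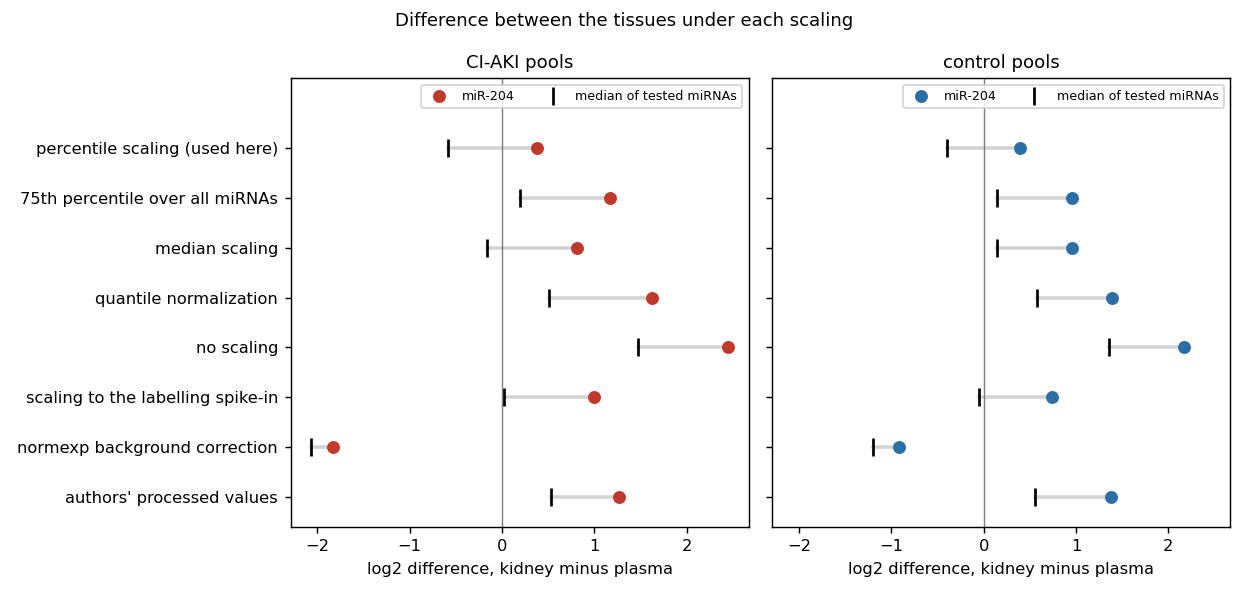
Log2 difference of miR-204, kidney minus plasma (coloured points), and the median over all tested miRNAs (black ticks) in CI-AKI pools (left) and control pools (right) under each way of bringing the arrays to 1 scale. Point and tick move together, as they largely must where a scaling divides each array by 1 factor. In CI-AKI pools they lie at 0.38 and −0.59 with the scaling used here and at 1.63 and 0.51 with quantile normalization.

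The kidney-enriched and epithelial lists give the setting for that tissue comparison. Of the epithelial miRNAs, 6 of 10 were higher and 1 lower in kidney than in plasma, in CI-AKI and in control rats alike. Over all tested miRNAs 29.3% were higher and 45.3% lower in CI-AKI rats, and 32.6% and 44.9% in control rats. With normexp the epithelial counts were 1 higher and 2 lower in CI-AKI and 3 higher and 1 lower in control rats. The median difference of the epithelial miRNAs was 1.59 in CI-AKI rats, beside −0.59 for all tested miRNAs, and 1.65 in control rats, beside −0.40. MiR-200b, which keeps epithelial identity by repressing the Zeb factors, had 600 to 679 scaled units over the 8 kidney arrays and −4.10 to 31.7 over the 8 plasma arrays. Of the kidney-enriched list 2 of 3 tested were higher in kidney and 1 lower in both treatments, and 0 were higher and 1 lower with normexp. Some listed miRNAs passed the detection filter through 1 tissue alone, such as miR-200b and miR-194 through kidney and miR-215 through plasma. Their direction was largely set by that filter, so the counts describe the setting and are no separate result.

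The member of that list that went the other way was miR-215, which was detected on 8 of 8 plasma arrays at 200 to 925 scaled units and on 0 of 8 kidney arrays. MiR-192 had 687 to 794 scaled units in kidney and 214 to 605 in plasma, and the tissues did not overlap on this scale. MiR-194 had 173 to 227 in kidney and at most 13.4 in plasma, where 4 of 8 arrays detected it. MiR-204, with 34.7 to 48.2 in kidney and 16.1 to 66.8 in plasma, overlapped where those 3 did not. Its lowest plasma value is that of an undetected pool 4. Overlap was not particular to miR-204: some miRNAs of the epithelial list overlapped too and others, such as miR-200b, did not. One that did was miR-30b-5p, with 262 to 394 in kidney and 181 to 451 in plasma.

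The summed blood cell markers and the liver marker miR-122 were higher in plasma than in kidney, so they moved with the tissue. The summed red blood cell markers ran from 3535 to 13263 in CI-AKI plasma and from 5425 to 8938 in control plasma, and the leukocyte markers from 3229 to 7231 in CI-AKI plasma and from 4724 to 6231 in control plasma. MiR-122, the main miRNA of liver, ran from 689 to 6188 in CI-AKI plasma and from 2174 to 4283 in control plasma. All 4 leukocyte markers and miR-122 were detected on every plasma array. The part of these cells in plasma miR-204 was not tested.

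The miRNAs whose signals followed miR-204 most closely differed between kidney alone and both tissues. Among 162 miRNAs detected on all kidney arrays, the highest Pearson correlations of log2 signal over the 8 kidney arrays were those of miR-30e* (0.854), miR-30a* (0.771), miR-451 (0.733), miR-30c (0.713) and miR-151 (0.662), beside a median of −0.158. Over all 16 arrays they were those of miR-29c (0.839), miR-27b (0.838), miR-199a-5p (0.832), miR-99a (0.795) and miR-30e (0.793), beside a median of 0.111. These values describe arrays that share slide, scaling and, in plasma, 2 dim arrays. They were also picked as the highest of 162 over 8 or 16 arrays, so which miRNAs lead may rest on that choice. MiR-451 is a red blood cell miRNA, and its kidney means, scaled within the tissue, were 385 ± 15.9 in CI-AKI and 331 ± 90.7 in control rats (SD, n = 4 each).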

How the data were processed

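An Agilent miRNA kit was used to label total RNA, per the labels' protocols. Per the file headers, spots were read with Feature Extraction 10.7.3.1; the deposited intensity is its background-subtracted processed signal for 7000 spots, 938 probes and 350 miRNAs per array. A second deposited table holds log2 values of the same arrays and was used as an alternative; how it was normalized is not given in the labels. Other deposited columns hold flags (other).

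Outlier and control spots were left out, spots were averaged per probe and probes per miRNA. Signals were scaled to the 75th percentile of each array, taken over miRNAs detected on all arrays of the fit (163 in kidney, 74 in plasma, 65 over 16 arrays). The lowest detected signal of each array was found, and its median over arrays was the floor (1.79, 0.976 and 1.31) set before log2. MiRNAs detected on all 4 arrays of a compared group were tested with limma 3.58.1 in R 4.3.3 (lmFit, eBayes, two-sided, Benjamini-Hochberg, threshold 0.05), within tissue for treatment and over 16 arrays for tissue and interaction. The code was tested on simulated data. The number of arrays limits the precision; no miRNA spot was saturated. Normexp (offset 50) used median signals, since the files hold no mean signal. Figures used Python 3.11.15 and matplotlib 3.10.9.

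The alternatives were other scalings, filters, floors, summaries, blocks, background correction, letter codes and leaving out arrays. Replicate numbers come from the titles; same-numbered CI-AKI and control pools deviated together in plasma (r = 0.224, 0.488, 0.619 and 0.603) and not throughout in kidney (0.204, 0.588, −0.0999 and 0.147). Named besides the members are the kidney-enriched list, up to 2 miRNAs of other lists and the 5 with the highest correlation with miR-204 in kidney and over all arrays. The members and lists were chosen with earlier results of these data known. Sequences and their GRCr8 positions are those of RefSeq, matched by name for 2 of 2 members.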

Additional observations from a re-analysis of the deposited data

Results flagged for a closer look

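In the plasma control group the scaled miR-211 signal of pool 4 was −5.57, far from the 0.263 to 0.491 of the other 3 pools and apart from them by more than a Dixon test at 95% allows. Chance gives about 1 such flag in 20 groups, and 8 groups were tested. MiR-211 was not detected on any of these arrays, and pool 4 is the dimmest array, where the signal before scaling was −0.546.

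The star strand of miR-204, which is not a member, gave signal in plasma and none in kidney. It is shown with its seed in capitals because it comes from the same hairpin as miR-204 (RefSeq, GRCr8, chr1:229743532-229743553, plus strand).

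rno-miR-204-3p: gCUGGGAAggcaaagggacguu

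The scanner files call it detected on 5 of 8 plasma arrays (CI-AKI pools 2 and 3 and control pools 1 to 3) and on 0 of 8 kidney arrays, where miR-204 itself was detected on 8 of 8. The signal rested on 1 of its 4 probes, which had 25 of 40 plasma spots well above background at a median of 23.9 signal units, against 1 of 40 kidney spots at a median of 0.561. The other 3 probes had 1, 3 and 3 of 40 plasma spots above background. In all, 14 miRNAs were detected on no kidney array and on at least 5 plasma arrays.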

How the results depend on the processing

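With the replicate number as a block the log2 differences of miR-204 were 0.04 in kidney (adjusted p = 0.934, limma), 0.01 in plasma, −0.01 for the interaction (0.994), and, kidney minus plasma, 0.38 in CI-AKI (0.291) and 0.40 in control rats (0.28); the block changed no call where miR-204 was fitted. In plasma the filter left it out; with detection on at least 1 array the block gave an adjusted p of 0.998 in limma, and without pool 4 one of 0.463, with 1 miRNA called against 0. In kidney, 22 of 25 alternatives kept sign and side of the threshold; letter codes gave −0.10, and leaving out 1 array gave −0.024 to 0.091. In plasma normexp gave 0.89, and the sign turned with the percentile over all miRNAs (−0.14), quantile normalization (−0.13), no scaling (−0.27), spike-in scaling (−0.25), total gene signal (−0.12) and letter codes (−0.17); leaving out 1 array gave −0.31 to 0.37. The interaction passed under none of 32 alternatives (lowest adjusted p 0.617, limma); its sign turned with the percentile over all miRNAs (0.21), quantile normalization (0.24), no scaling (0.27), spike-in scaling (0.26), total gene signal (0.11), letter codes (0.055) and single arrays (−0.37 to 0.34). Kidney minus plasma passed with the percentile over all miRNAs (1.17 in CI-AKI, 0.96 in control), median scaling (0.82, 0.95), quantile normalization (1.63, 1.38) and the authors' values (1.27, 1.37), with spike-in scaling in CI-AKI only (0.997), and turned negative with normexp (−1.83, −0.92); leaving out 1 array gave 0.05 to 0.73 in CI-AKI and 0.20 to 0.75 in control rats. The cause was not tested. MiRNAs called in kidney numbered 3, and 0 with normexp, with detection on every array or with letter codes, and 1 with quantile normalization, no scaling or all groups in 1 fit. The interaction called 1, and 0 to 2 under alternatives. Between tissues the counts were 135 in CI-AKI and 138 in control rats, 78 and 66 with no scaling, 55 and 54 with detection on every array, and 63 with normexp in control rats. Exact permutation tests and the last 2 block fits in plasma were added after the data were seen. The comparison and the correlation of miR-204 with miR-211 were not run because miR-211 was detected on 0 arrays.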
